A study of Mus musculus with 8 samples.

Results

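N6-methyladenosine (m6A) was followed at the sites of Mat2a and of 3 other genes of S-adenosylmethionine (SAM) metabolism and its control, Mat2b, Mettl16 and Ahcyl1. A site belonged to one of these genes when its symbol stood in the gene column of the called site list of any of the 4 TBLC libraries. This gave 18 of 85953 sites and 4 of 10609 genes. Mat2a had 6 sites, Mat2b 3, Mettl16 8 and Ahcyl1 1. The measurement was GLORI, in which unmethylated adenosine is chemically converted and read as G, whereas methylated adenosine is still read as A. The m6A level of a site is thus its A reads as a fraction of A+G reads. An unmethylated adenosine that escaped conversion would also be read as A, and its share at single sites was not tested.

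The series comprised 8 mouse libraries in 4 groups of 2, each made from 50 ng of mRNA. TBLC grown in MYCP medium were given siVirma, an siRNA against the writer subunit Virma, or the control siRNA siNC. In the second experiment EPSC, with a dCas13b-FTO targeting system meant to remove m6A, had a guide against Gata6 (sgGata6) or a control guide (sgCtrl). The labels give no further genotype, strain, clone or time, and do not state whether replicates were separate cultures, so p-values measure only the spread between libraries. With 2 libraries against 2, an exact permutation test of a single value cannot go below p = 0.333, and calls therefore rest on models fitted across all sites or genes.

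SAM is the methyl donor for nearly every cellular methylation reaction, and it is made from methionine and ATP by methionine adenosyltransferase. Mat2a encodes the catalytic subunit used outside the adult liver, and Mat2b the regulatory subunit that binds it. Mettl16 encodes a methyltransferase that acts alone, outside the large writer complex that holds Mettl3, Mettl14 and Virma. It is known to methylate U6 snRNA and hairpins in the 3′ UTR of Mat2a mRNA, and to couple splicing and stability of that mRNA to the supply of SAM. Ahcyl1 encodes a relative of the hydrolase that clears S-adenosylhomocysteine, and is better known as a partner of the inositol trisphosphate receptor.

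The siVirma lists held 41082 and 34739 sites with 3423268 and 2655963 A+G reads, against 66350 and 61957 sites with 4764955 and 4367999 A+G reads in the siNC lists. The deposited gene coverage of Virma was 24.0 and 22.8 in siVirma and 40.3 and 38.2 in siNC, which is 0.531-fold relative to the median gene (limma adjusted p = 0.000403). All 9 naive pluripotency markers had a listed site in TBLC, as did 8 of 10 markers of the 2-cell stage program, without Duxf3 and Tcstv1, and 4 of 5 primitive endoderm markers, without Sox7. All 9 fibroblast markers had one too, so a listed site does not separate TBLC from feeder cells. Lists start at 15 A+G reads, 5 A reads and a level of 0.1, so a site absent from a list has no value there and may have had a lower level or fewer reads.

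The Mat2a sites lay on the minus strand of chromosome 6 (build mm39) within 1409 bases, between chr6:72411344 and chr6:72409936. Numbered from the 5′ end of the transcript strand, site 1 was at chr6:72411344, site 2 at chr6:72411233, site 3 at chr6:72410270, site 4 at chr6:72410155, site 5 at chr6:72410044 and site 6 at chr6:72409936. Site 3 followed site 2 after 963 bases. Sites 1 and 2 were 111 bases apart. Beyond the gap, sites 3 to 6 stood at a near-regular interval, with 115, 111 and 108 bases between neighbours. Exons and UTRs are not assigned, for want of an mm39 annotation in this work, and the positions were not matched to the known hairpins.

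Mat2a kept nearly all of its measured m6A level when Virma was depleted, at the sites called in all 4 libraries. Of its 6 sites, 5 (sites 2 to 6) were called in all 4 libraries, and the siVirma level of each was between 92.0% and 99.3% of its siNC level. Site 3 had the most reads. Its level was 0.707 (354 of 501 reads) and 0.736 (284 of 386) in siVirma, against 0.781 (317 of 406) and 0.787 (281 of 357) in siNC. Both siVirma values of site 3 lay below both siNC values, which was also true, in one direction or the other, of 95.5% of the 20414 tested sites. Site 3 fell by 0.50 on the log2 odds scale (SE 0.17, edgeR adjusted p = 0.00506) and kept 92.0% of its siNC level. It was the 1 of 5 tested Mat2a sites that passed as lower, where 91.6% of all tested sites did so and 0.147% passed as higher. DESeq2 gave that site an adjusted p of 0.0558 and limma one of 0.182, and without siVirma replicate 1 edgeR gave 0.103.

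Site 4 read 0.734 (102 of 139 reads) and 0.735 (97 of 132) in siVirma, against 0.752 (79 of 105) and 0.727 (80 of 110) in siNC. Both siVirma values fell between the siNC values (edgeR adjusted p = 0.902), and 99.3% of the level remained. Site 5 read 0.797 (51 of 64) and 0.845 (49 of 58) in siVirma, and 0.80 (44 of 55) and 0.864 (38 of 44) in siNC. Here too the groups overlapped (edgeR adjusted p = 0.874), with 98.7% remaining. Site 6, the second deepest, read 0.632 (232 of 367) and 0.549 (152 of 277) in siVirma, and 0.644 (206 of 320) and 0.627 (170 of 271) in siNC. One siVirma library lay below both siNC libraries and the other between them, for a remaining share of 92.9% (edgeR adjusted p = 0.18, but 0.0392 without siVirma replicate 1).

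Site 2 was the shallowest of the 5, at 35 of 39 and 20 of 26 reads in siVirma and 21 of 22 and 19 of 24 in siNC. Its levels, 0.897 and 0.769 in siVirma and 0.955 and 0.792 in siNC, overlapped (edgeR adjusted p = 0.741). The 95% Wilson interval of its lower siVirma value ran from 0.580 to 0.890, against 0.665 to 0.745 for the first siVirma library of site 3, so only the deep sites constrain a small change. Wilson intervals cover counting error only, and not the spread between libraries. Site 1 stood apart from the others in being weakly methylated. It read 0.125 (8 of 64) and 0.130 (6 of 46) in siNC, just above the list minimum, and was in neither siVirma list.

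**Figure D1:**
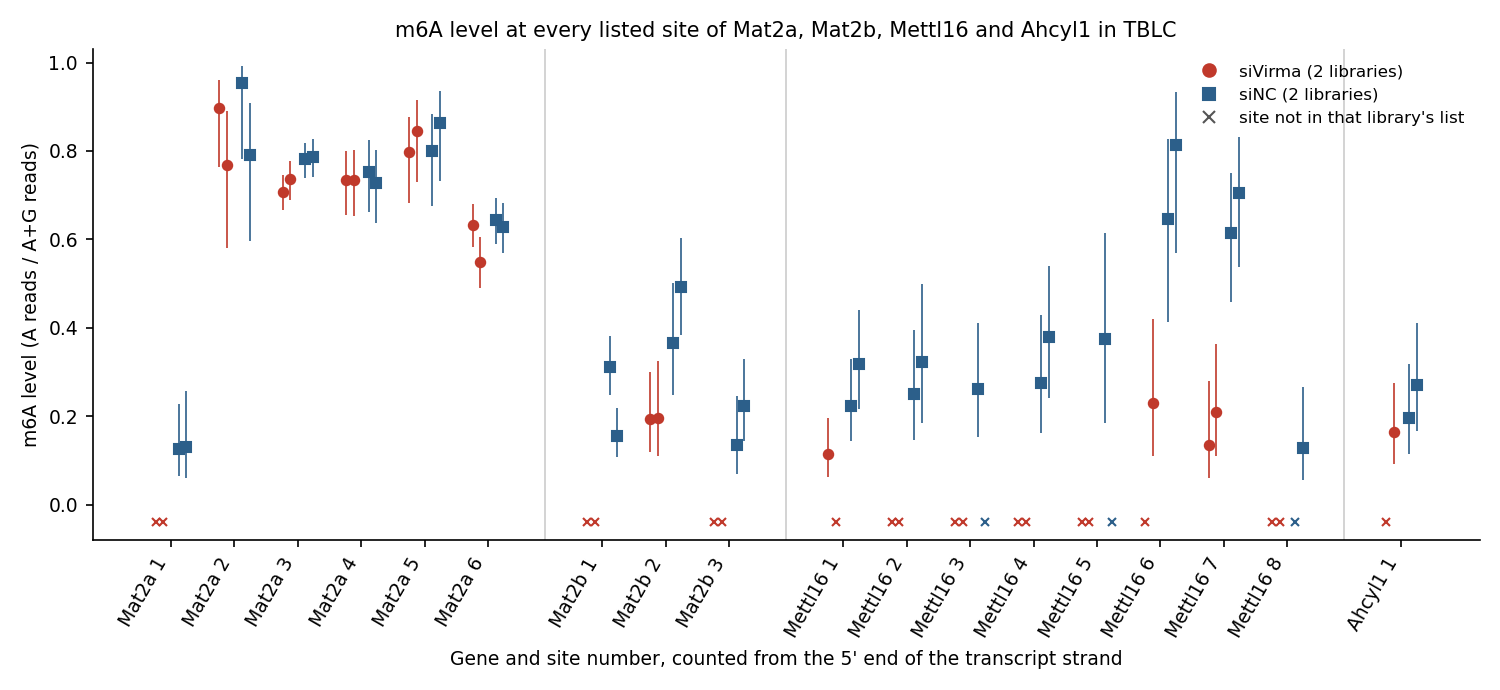
m6A level (A reads over A+G reads) at each of the 18 sites, with siVirma libraries as red circles and siNC libraries as blue squares, 95% Wilson intervals as bars and crosses for a site missing from a library's list. Mat2a sites 2 to 6 sit at 0.549 to 0.897 in siVirma and 0.627 to 0.955 in siNC. Mat2b site 2 and Mettl16 site 7 sit at 0.211 or below in siVirma and 0.365 or above in siNC.

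Over all tested sites the median remaining share was 45.1%, and 936 sites (4.59%) kept at least 90%. Because the remaining share varied with the siNC level, each Mat2a site was set beside sites with a siNC level in the same 0.1-wide bin. Site 4 was matched or exceeded by 0.469% of 2556 such sites, site 3 by 0.665% of the same sites, site 6 by 1.07% of 2717, site 5 by 1.27% of 2923 and site 2 by 1.64% of the same 2923. The bin medians were 40.3% to 49.2%, so all 5 Mat2a sites stood in the upper tail of sites of like level.

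The change relative to the typical site was tested with limma on log2 odds centred on each library's median. By this test 4 of the 5 Mat2a sites were higher than the median site, where 4.79% of all sites were higher and 3.69% lower. In mean level itself, each of the 5 was slightly lower in siVirma than in siNC. The relative log2 difference was 1.78 at site 3 (adjusted p = 0.0253), 2.23 at site 4 (adjusted p = 0.0196), 2.16 at site 5 (adjusted p = 0.0241) and 2.00 at site 6 (adjusted p = 0.0240). Site 2 had 1.75 and did not pass (adjusted p = 0.184). These limma calls were lost for all sites in the series, Mat2a included, without either siVirma replicate. An edgeR test with the median change as an offset, applied to the same 3 libraries after that loss was seen, still called 3 Mat2a sites in each case. Site 5 was then among those lost, at adjusted p = 0.0592 without siVirma replicate 1 and 0.0995 without siVirma replicate 2.

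**Figure D2:**
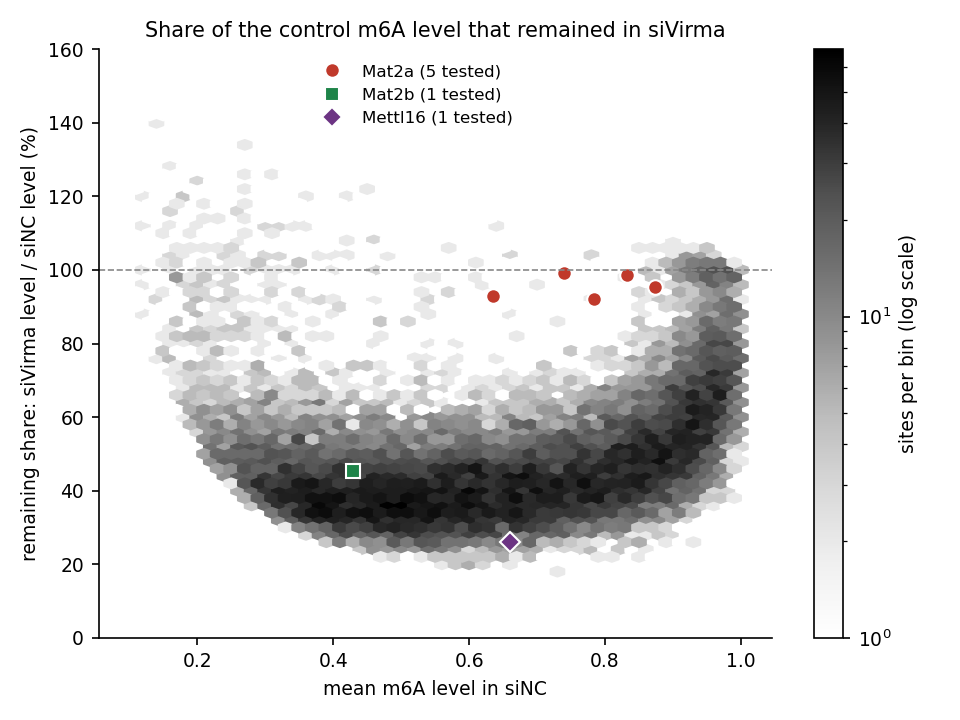
Remaining share (mean siVirma level over mean siNC level, in percent) against the mean siNC level for tested sites (20414 in all), shaded by number of sites per bin on a log scale, with the tested Mat2a, Mat2b and Mettl16 sites marked. Sites whose share exceeds the upper axis limit are not drawn. The 5 Mat2a sites lie at 92.0% to 99.3%, above the dense band around the median of 45.1%; sites with low siVirma levels are missing because lists hold no level under 0.1.

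Summed over its 5 tested sites, Mat2a had a level of 0.697 and 0.685 in siVirma and 0.735 and 0.730 in siNC. The siVirma libraries were both lower, by 0.28 on the log2 odds scale (SE 0.11, edgeR adjusted p = 0.0104), and 94.4% of the level remained. This small fall was not called by limma (adjusted p = 0.136), nor by edgeR without siNC replicate 1 (0.0519) or without siVirma replicate 2 (0.0694). Relative to the median gene Mat2a was 1.88 higher (SE 0.16, limma adjusted p = 0.0149), where 6.27% of genes were higher. Leaving out any 1 library took that limma p to between 0.0504 and 0.117. Of 5642 tested genes, 177 (3.14%) kept at least as large a share. Among the 2473 genes with at least 3 tested sites, 2 did so, Mat2a and Gm6177 (105%, from levels of 0.123 and 0.157 in siVirma and 0.12 and 0.15 in siNC). The Gm6177 levels stood close to the list minimum of 0.1, so a large fall would have removed its sites from the lists. Mat2a was also the 1 gene of those 2473 in which every tested site kept at least 90%. The site number and the 90% limit were chosen after the values were seen, so this is a description and no test.

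The presence of sites in the lists was counted next. Of the 6 Mat2a sites called in both siNC lists, 5 were in both siVirma lists and 1 in neither. Of the 9 such sites of Mat2b, Mettl16 and Ahcyl1 together, 2 were in both and 4 in neither. For all sites the share in both siVirma lists was 47.1%, or 23354 of 49554, and 16405 of the 49554 were in neither. Sites of one gene share its transcripts and are not independent, and low siNC levels alone make a site easier to lose, so these counts carry no test.

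The Mat2b sites lay on the minus strand of chromosome 11, site 1 at chr11:40570919, site 2 at chr11:40570865 and site 3 at chr11:40570592. Site 2 was the one called throughout, at 0.194 (14 of 72 reads) and 0.196 (10 of 51) in siVirma, against 0.365 (19 of 52) and 0.493 (37 of 75) in siNC. The groups did not overlap, and the site kept 45.5% of its level, close to the median of all sites. It fell by 1.69 on the log2 odds scale (SE 0.39, edgeR adjusted p = 0.000118), and its change relative to the median site was 0.68 (limma adjusted p = 0.287). Sites 1 and 3 were in neither siVirma list. Site 1 had 56 of 180 and 26 of 167 reads in siNC, levels of 0.311 and 0.156 that differed between the siNC replicates beyond their Wilson intervals. Site 3 had 8 of 59 and 17 of 76.

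Mettl16 site 7 kept the smallest share of the 7 tested member sites. The Mettl16 sites were on the plus strand of chromosome 11, site 1 at chr11:74674950 and sites 2 to 8 together between chr11:74708049 and chr11:74708532. Site 7 was at chr11:74708434. It read 0.135 (5 of 37) and 0.211 (8 of 38) in siVirma, against 0.615 (24 of 39) and 0.706 (24 of 34) in siNC. Both siVirma libraries were far below both siNC libraries, and 26.2% of the level remained, less than at 96.6% of sites of like siNC level. It fell by 3.17 on the log2 odds scale (SE 0.50, edgeR adjusted p = 2.2e-07). Its change relative to the median site was -0.88, which did not pass (limma adjusted p = 0.208).

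A further 2 Mettl16 sites had a value in 1 siVirma library each and could not enter the test. Site 6 read 0.231 (6 of 26) in siVirma replicate 2, against 0.647 (11 of 17) and 0.813 (13 of 16) in siNC. Site 1 read 0.114 (10 of 88) in siVirma replicate 1, against 0.224 (17 of 76) and 0.317 (20 of 63) in siNC. Each of these single siVirma values lay below both siNC values, in a contrast where 91.6% of all tested sites passed as lower. Sites 2 and 4 were in both siNC lists and no siVirma list, with siNC levels from 0.25 to 0.378. Sites 3, 5 and 8 were in 1 siNC list each, at 0.262, 0.375 and 0.128.

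Ahcyl1 had a single site, on the minus strand at chr3:107570585. It read 0.164 (10 of 61) in siVirma replicate 2 and was not listed in replicate 1, against 0.196 (11 of 56) and 0.271 (13 of 48) in siNC. The siVirma value lay below both siNC values, where 91.6% of all tested sites passed as lower. In the fit without siVirma replicate 1 its change was -0.61 on the log2 odds scale and did not pass (edgeR adjusted p = 0.324).

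Whether Mat2a changed less than the other members was compared directly, in a comparison chosen after the values were seen. At the gene level, from the edgeR estimates, the change of Mat2a exceeded that of Mettl16 by 2.88 (97.5% interval 1.73 to 4.03) and that of Mat2b by 1.41 (0.47 to 2.34), the intervals covering both pairs jointly. All 5 Mat2a sites differed from Mettl16 site 7 with 99.5% intervals that left out 0. Against Mat2b site 2, such intervals left out 0 for Mat2a sites 4 and 6 and included it for sites 2, 3 and 5. The comparison with Mat2b depended on the test. A limma test relative to Mat2b, run before the edgeR intervals were, did not call Mat2a at the gene level (1.30, adjusted p = 0.0690) or at any of the 5 sites (adjusted p between 0.0621 and 0.223). The same limma test called Mat2a against Mettl16 at the gene level (2.86, adjusted p = 1.8e-05) and at all 5 sites. Without siNC replicate 2 the edgeR difference from Mat2b was 0.94, with an interval from -0.20 to 2.07. Mat2b and Mettl16 each rest on 1 tested site here.

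The deposited gene coverage, a signal given per gene in each list, was compared next. In bulk samples, fewer cells of a type and less RNA per cell cannot be told apart. Mat2a coverage was 211 and 171 in siVirma and 165 and 157 in siNC. Both siVirma values were the higher, but relative to the median gene, whose coverage was itself 0.17 higher in siVirma on the log2 scale, Mat2a was 1.06-fold and did not pass (limma adjusted p = 0.317). Mettl16 coverage was 48.7 and 42.2 in siVirma and 42.7 and 38.3 in siNC, overlapping, and 0.999-fold relative to the median gene (adjusted p = 0.988). The conversion rate listed for Mat2a was 0.988 in both siVirma libraries and 0.986 in both siNC libraries.

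Mat2b coverage was 107 and 86.6 in siVirma, on either side of 105 in each siNC library. Relative to the median gene it was 0.818-fold and passed as lower (limma adjusted p = 0.0143), where 12.4% of the 6787 genes did. It did not pass uncentred (adjusted p = 0.595), without siNC replicate 2 (0.0527) or without siVirma replicate 1 (0.0715). Ahcyl1 coverage was 49.0 in siVirma replicate 2, against 46.9 and 48.5 in siNC, and was not listed in siVirma replicate 1. Fibroblast markers moved with the same contrast. Their coverage summed to 552 and 445 in siVirma and 309 and 289 in siNC, and 5 of 6 tested were higher where 9.15% of genes were. Their part in the coverage or level changes was not tested.

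**Figure D3:**
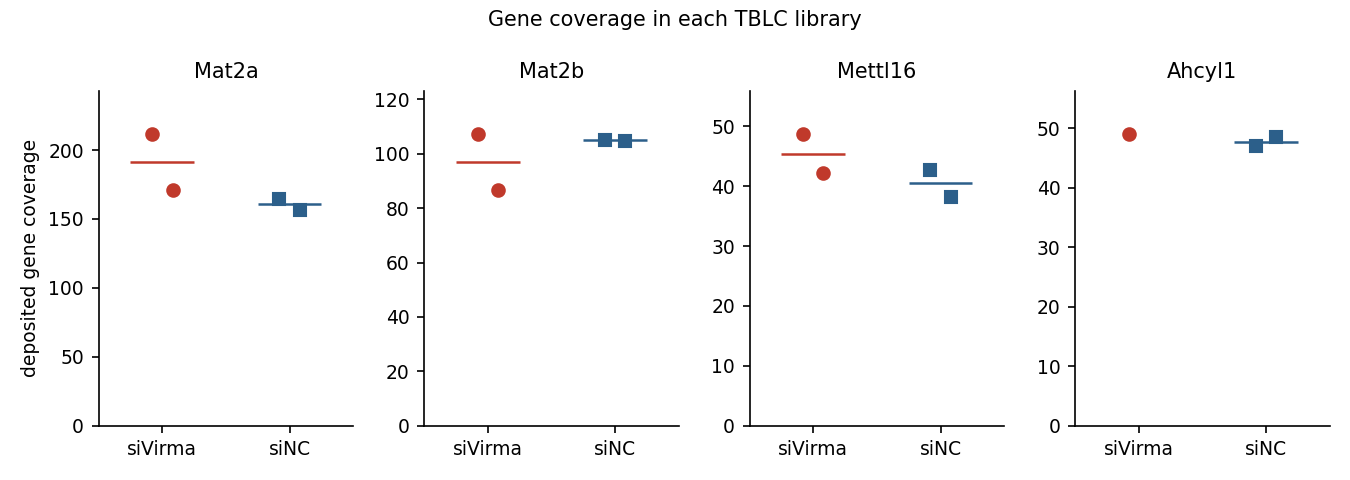
Deposited gene coverage of the 4 genes in each TBLC library, siVirma left of siNC, each point a library and each line the group mean, with every axis starting at 0. Mat2a is at 211 and 171 in siVirma and 165 and 157 in siNC, and Mat2b at 107 and 86.6 in siVirma and 105 in both siNC libraries.

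The wider pathway was read from 6 lists of 80 genes in all, of which 42 had a tested site. Of these 42, 38 passed as lower in siVirma at the gene level (edgeR), where 93.8% of all tested genes did and 0.177% passed as higher. Their median remaining share was 43.8%, against 44.9% over all tested genes. The medians of the lists with more than 1 tested gene ran from 34.3% for polyamine genes to 48.6% for the folate cycle. The 42 include Mat2a, Mat2b and Mettl16, and without them 35 of 39 fell, with a median of 43.7%. In the list of the methionine cycle and SAM synthesis 8 of 9 fell, among polyamine and methylthioadenosine genes 6 of 6, in the folate cycle 9 of 10, among transsulfuration and SAM-using enzymes 6 of 6, and among METTL16 partners and factors of U6 and Mat2a splicing 9 of 11. Among METTL3-independent m6A enzymes 1 was tested, Mettl16 itself.

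The methionine cycle list also holds amino acid transporters that can bring methionine into the cell. Slc38a2, a neutral amino acid transporter, had 0.303 and 0.314 in siVirma and 0.767 and 0.773 in siNC over 9 sites (40.1% kept, edgeR adjusted p = 6.17e-32). Slc7a5, the light chain of the large neutral amino acid transporter, had 0.246 and 0.227 in siVirma and 0.660 and 0.685 in siNC (35.2% kept). Both were far apart between groups. Slc3a2, the heavy chain that pairs with Slc7a5, had 0.451 and 0.407 in siVirma and 0.303 and 0.441 in siNC at its 1 tested site. Its groups overlapped (edgeR adjusted p = 0.324), and it stood 2.52 above the median gene (limma adjusted p = 0.0261).

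In the polyamine, folate and SAM-using lists the named genes passed as lower, except Tyms. Spermidine synthase, Srm, kept 35.7% and methylthioadenosine phosphorylase, Mtap, kept 54.4%. Shmt1 and Fpgs, which hand on and retain folate carbon units, kept 39.7% and 39.4%. Tyms, which makes thymidylate, had 0.133 and 0.188 in siVirma and 0.148 and 0.183 in siNC and did not pass (edgeR adjusted p = 0.914). Its levels stood close to the list minimum of 0.1, so a large fall would have removed the site from the lists. The protein methyltransferases Icmt and Pcmt1 kept 55.3% and 52.8%, and Pcmt1 was lower also relative to the median gene, by -1.51 (limma adjusted p = 0.0367), where 4.09% of genes were.

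Among RNA factors linked to METTL16, the capping enzyme Mepce had 0.372 and 0.362 in siVirma and 0.750 and 0.743 in siNC, and Sart3, which recycles U6, had 0.238 and 0.293 in siVirma and 0.671 and 0.674 in siNC. Of the ring that binds U6, 4 subunits were tested. Lsm2 and Lsm3 fell, keeping 34.2% (edgeR adjusted p = 0.000156) and 27.4% (edgeR adjusted p = 1.46e-09), and Lsm4 and Lsm5 did not pass. Lsm5 had 0.554 and 0.478 in siVirma and 0.553 and 0.564 in siNC (edgeR adjusted p = 0.610), and Lsm4 had 0.190 and 0.293 in siVirma and 0.333 and 0.294 in siNC (edgeR adjusted p = 0.219). By limma 5 of the 42 genes were higher than the median gene, Mat2a, Slc3a2, Tyms, Lsm4 and Lsm5, where 6.27% of all tested genes were, and 2 were lower, Pcmt1 and Cpsf6, a subunit of a cleavage factor, where 4.09% were. Mat2a was the 1 of those 5 higher genes with more than 1 tested site.

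**Figure D4:**
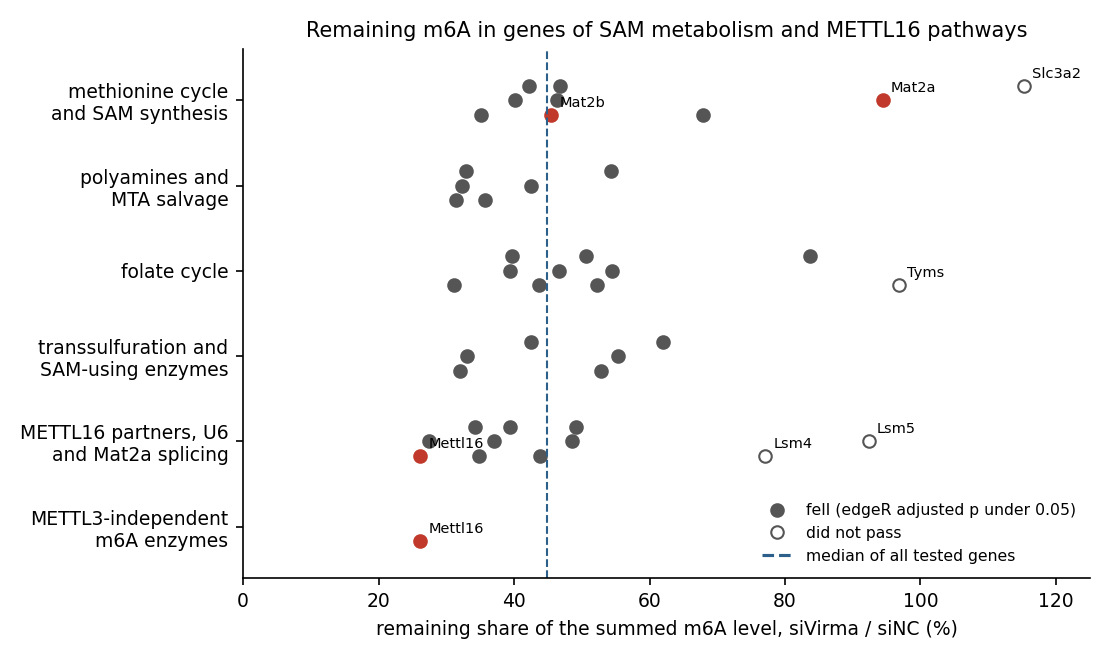
Remaining share of the summed m6A level (siVirma over siNC, in percent) for the 42 tested genes of 6 lists, with filled points for genes that fell (edgeR adjusted p under 0.05), open points for genes that did not pass, red for Mat2a, Mat2b and Mettl16, and a dashed line at 44.9%, the median of all tested genes. Mat2a lies at 94.4% and Mettl16, which stands in 2 lists, at 26.2%.

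The genes whose levels across the 4 TBLC libraries were nearest to those of Mat2a, by Euclidean distance among 3160 genes with at least 100 A+G reads per library, were Gm26917, n-TKctt6, Rps4l, n-TScga3 and Tet2, at distances of 0.0560 to 0.135. Gm26917 had 0.730 and 0.724 in siVirma and 0.756 and 0.737 in siNC. Tet2, a DNA dioxygenase, lay at the far end with 0.616 and 0.619 in siVirma and 0.799 and 0.787 in siNC, a wider gap between groups than that of Mat2a. Rps4l had 0.600 and 0.628 in siVirma and 0.749 and 0.773 in siNC. The tRNA genes did not have a lower mean in siVirma. n-TKctt6 had 0.682 and 0.691 in siVirma and 0.681 and 0.657 in siNC. For n-TScga3 the levels were 0.664 and 0.759 in siVirma and 0.648 and 0.671 in siNC. Whether their A reads came from m6A or from unconverted adenosine was not tested. Symbols of repeated genes such as those for tRNAs are uncertain, since reads could be shared with other copies. Of 9009 sites with 50 or more A+G reads per library, Mat2a site 4 was the second nearest to Mat2a site 3, after a site with no gene name. Next was a site of n-TScga3, at 0.743 and 0.797 in siVirma and 0.737 and 0.788 in siNC. Then came a site of TrnK, at 0.778 and 0.804 in siVirma and 0.812 and 0.792 in siNC. A site of Bltp2 followed, at 0.675 and 0.729 in siVirma and 0.803 and 0.885 in siNC.

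In EPSC, 7 of the 18 sites had a row in the table, which holds 1 pooled value per group, so its tests compare pooled reads and not conditions. Mat2a site 3 read 0.90 (36 of 40) in sgGata6 and 0.923 (24 of 26) in sgCtrl. Mat2a site 6 read 0.833 (30 of 36) in sgGata6 and 0.828 (24 of 29) in sgCtrl, and site 4 read 0.733 (11 of 15) in sgGata6 and 0.700 (7 of 10) in sgCtrl. These Mat2a sites were thus highly methylated in both EPSC groups as well as in TBLC. Mat2b site 1 read 0.340 (16 of 47) in sgGata6 and 0.381 (8 of 21) in sgCtrl, and Mettl16 site 1 read 0.333 (9 of 27) in sgGata6 and 0.444 (12 of 27) in sgCtrl. The matched Mat2b and Mettl16 sites lay below Mat2a sites 3, 4 and 6 in both groups. Mat2b site 2 had 6 of 17 reads in sgGata6 and 7 of 16 in sgCtrl, and Mat2b site 3 had 6 of 16 in sgGata6 and 2 of 17 in sgCtrl.

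None of the 4 member sites with 20 or more A+G reads in both groups passed as changed, the smallest unadjusted p being 0.577 by two-sided Fisher's exact test. Over all 10185 such rows, 0.255% passed as lower in sgGata6 and 0.0196% as higher, and 1197 had an unadjusted p under 0.05. At these depths only large differences could have been seen: the 95% Wilson interval of Mat2a site 3 was 0.770 to 0.960 in sgGata6 and 0.759 to 0.979 in sgCtrl.

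**Figure D5:**
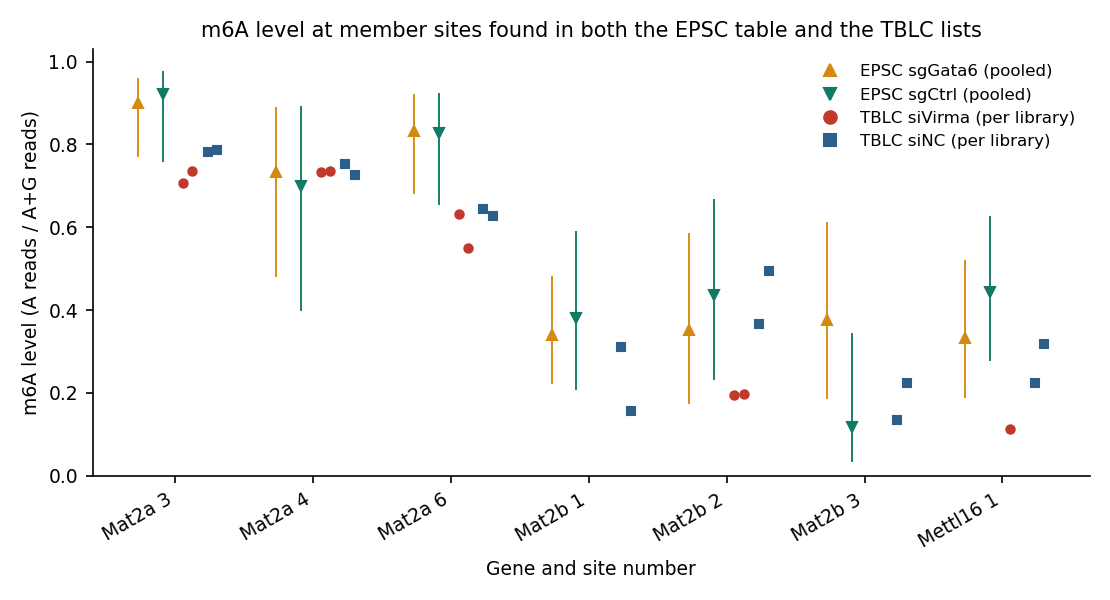
m6A level at the 7 sites found in both the EPSC table and the TBLC lists, with pooled EPSC values of sgGata6 and sgCtrl (triangles, with 95% Wilson intervals) beside single TBLC libraries of siVirma and siNC. The 3 Mat2a sites lie at 0.700 or above in both EPSC groups, and the 4 Mat2b and Mettl16 sites at 0.444 or below.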

How the data were processed

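Per the labels' protocols, sequencing was on a NovaSeq, and the submitters' processing notes name the build mm39. The sources used here do not give the aligner, the caller or the counting rules. The authors deposited, per the file headers, counts of A and of A+G reads per called site, the level as a fraction, a p-value and an adjusted p-value, a conversion rate (fraction) and a gene coverage signal. How coverage and conversion rate were computed is not given, and the EPSC table pools the libraries of a group, so the deposited counts there have no replicates.

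From these, sites in all 4 TBLC lists with a minimum of 20 A+G reads in each library (20414) were tested, and reads summed over them per gene (5642 genes); 6.14% to 7.7% of listed sites had no gene name and stayed out of gene tests. Level changes were tested with edgeR 4.0.16 (quasi-likelihood, A and G counts, a term per library, change on the log2 odds scale). Changes relative to the median used limma 3.58.1 on log2 odds with 0.5 added, and coverage limma on log2 values, both centred on each library's median. All used R 4.3.3 and Benjamini-Hochberg adjustment at 0.05. EPSC rows were tested with two-sided Fisher's exact test, in place of edgeR on single libraries. Summaries used Python 3.11.15, pandas 2.3.3 and scipy 1.17.1.

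The members, lists and tests were chosen with earlier results of these data known. Always named were the 4 genes, and from each list up to 2 genes with the lowest edgeR p and every tested gene that did not pass. Named outside that rule, after their values were seen, were Gm6177, Cpsf6, Lsm2 and Lsm3. The direct comparison of Mat2a with Mat2b and Mettl16 was first made with limma relative to the single gene or site. In that test all rows share the reference's noise, and the SE was identical at all 5 sites (0.619 against Mat2b). At the gene level its SE against Mat2b, 0.520, was larger than that of the edgeR difference, 0.402. Intervals from edgeR estimates were computed after it, with the limma result known. The tests were also run on simulated data, with the outcome not given here. For changes relative to the median, the simulated sites outside the altered set all changed alike, unlike the real sites. Alternatives were another minimum of reads, DESeq2, limma, another offset or centring, a replicate block and leaving out each library.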

Additional observations from a re-analysis of the deposited data

How the results depend on the processing

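Relative to the median site or gene, Mat2a stayed positive under every alternative run, while its calls were lost under some. edgeR fits with an offset and without 1 library were added after the data were seen. The gene-level fall of Mat2a was -0.29 by limma (not called) and -0.33 to -0.25 over fits without 1 library. Its value relative to the median gene was 1.68 to 1.89 without 1 library by limma, and 1.66 to 1.90 by edgeR with an offset. The number of Mat2a sites that fell was 0 by DESeq2 and 0 by limma, and 1 in each fit without 1 library, though not always the same site. Relative to the median site 0 to 5 Mat2a sites were higher without 1 library; the 0 came from limma without either siVirma replicate, which then called no site at all, while edgeR with an offset called 3 or 4. The difference from Mat2b was 0.94 to 1.73 and that from Mettl16 2.04 to 3.22 without 1 library, and the difference from Mat2b was 1.30 by limma (not called).

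Directions turned in some fits without 1 library, with ranges of -0.47 to 0.18 at Mat2a site 5, -0.14 to 0.052 at site 4 and -1.81 to 0.53 at site 2. Mettl16 coverage ranged over -0.057 to 0.047 likewise and was 0.17 uncentred. None of these passed before or after. Of the other single values, 197 kept direction and side of the threshold, 17 lost a call and 4 gained one. These counts leave out the gene-level m6A changes of Mat2a and its differences from Mat2b and Mettl16. As described above, some of those lost their call too.

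Over all features, a minimum of 50 A+G reads gave 10 sites that rose and 8504 of 9010 that fell, 3 genes that rose and 3108 of 3275 that fell, and 1146 sites lower than the median site. DESeq2 gave 4 sites and 1 gene that rose. Relative to the median, limma on levels gave 4268 sites and 901 genes higher. edgeR with an offset gave 1607 sites higher and 2003 lower, and 881 genes higher and 728 lower. Coverage was lower for 30 genes uncentred. In EPSC a minimum of 50 reads gave 8 rows higher and 77 lower. Without 1 library, 10 to 24 sites rose and 18456 to 20291 fell, and 4 to 9 genes rose and 5331 to 5667 fell. Relative counts by limma were then 0 to 1412 sites higher and 0 to 1456 lower, 0 to 102 genes higher and 0 to 68 lower. By edgeR with an offset they were 424 and 409 sites higher without siVirma replicate 1 and 2. For genes edgeR gave 718 higher and 510 lower without siNC replicate 1, 769 and 540 without siNC replicate 2, 567 and 601 without siVirma replicate 1, and 552 and 522 without siVirma replicate 2. Coverage was higher for 15 to 580 genes and lower for 10 to 785. The cause of these shifts was not tested, and fewer features entered at 50 reads.

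Same-numbered replicates did not deviate together in level (correlations of 0.00844 over sites and -0.0131 over genes, in 2 pairs). In coverage they did so weakly (0.138). The numbers are not taken to pair the libraries, and a replicate block was run as an alternative. With the replicate block, 204 genes were higher and 73 lower than the median gene, 1306 genes had lower coverage, and Mat2a site 2 passed as higher than the median site (adjusted p = 0.0348). Counts at sites such as Mat2a site 2, at 22 to 39 reads, limit what a small change can show.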

Other observations

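The EPSC table held 2 further rows beside the Mat2a sites that have no counterpart in any TBLC list. The row at chr6:72411114, between sites 2 and 3 on the minus strand, read 0.156 (7 of 45) in sgGata6 and 0.0294 (1 of 34) in sgCtrl (two-sided Fisher's exact p = 0.128). The row at chr6:72411393, 49 bases from site 1, read 0.235 (12 of 51) in sgGata6 and 0.128 (6 of 47) in sgCtrl (two-sided Fisher's exact p = 0.199). Both were weakly methylated next to Mat2a sites 3, 4 and 6, and neither differed between the pooled groups beyond counting error. They were picked out after their values were seen.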
